A study of Mus musculus with 5 samples.

Results

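Of 58192 regions bound by Olig2 or Hoxc9 in mouse motor neuron progenitors, 971 held binding events of both factors in all 4 deposited event lists. ChIP-seq recovers DNA bound by a protein with an antibody and sequences it, and an event is a single base at which the authors' event caller placed binding. The events on the 19 autosomes and X were pooled, and neighbouring events were chained into 1 region where the gap was 200 bp or less. The 971 regions are 1.67% of all regions, 12.2% of the 7931 regions with both Olig2 lists (Wilson 95% interval 11.5 to 13.0) and 11.4% of the 8539 regions with both Hoxc9 lists (10.7 to 12.1). These intervals, like those below, cover counting error only.

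Olig2 belongs to the basic helix-loop-helix family and acts in the ventral neural tube in progenitors of motor neurons and oligodendrocytes. Factors of the family bind the short E-box sequence as dimers. Hoxc9 is a homeodomain factor that marks the thoracic level of the spinal cord, where it helps to set motor neuron identity along the body axis, and Hox factors often bind with partners of the Pbx and Meis families. Regions bound by several factors are a common feature of developmental enhancers, and they also include stretches of accessible chromatin at which many different ChIP experiments give signal.

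All cells were Ainv15 mouse embryonic stem cell lines carrying a doxycycline-inducible tagged factor. They were differentiated as embryoid bodies with 1 µM all-trans retinoic acid and 0.5 µM of the hedgehog agonist SAG from day 2. The native Olig2 list came from day 4 cells of the inducible V5-Olig2 line without doxycycline, with an antibody to Olig2 itself. The V5 Olig2 list came from day 4 cells of that line with doxycycline (3 µg/ml) and anti-V5. The V5 Hoxc9 list (1 list named for 2 replicates) and the Flag Hoxc9 list came from day 5 cells with doxycycline, of a V5-Hoxc9 line and a Flag-Hoxc9 line, with anti-V5 and anti-Flag. Factor, day and line therefore cannot be told apart between the Olig2 and the Hoxc9 lists, and Hoxc9 was bound in cells in which it had been switched on. The mock ChIP with anti-V5 in uninduced day 4 cells was not analysed here. The labelled cell type could not be checked against marker genes, since only binding was measured.

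Each condition had a single list without replicates, and the events described below are the ones that chose the regions. All values that follow are therefore descriptions of these 4 lists, and no test was made. The lists held 15697 (native) and 11067 (V5) events of Olig2 and 11065 (V5) and 49278 (Flag) events of Hoxc9 on the chromosomes used. Library totals were not used, so depth is unknown and IP reads (reads from the antibody sample assigned to an event) are compared between lists only as percentiles, where 100 is the event with most IP reads in its list. Percentiles depend on list length, and the Flag Hoxc9 list is the longest, so equal percentiles of different lists do not mean equal strength. A region is described by its strongest event in each list.

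The Olig2 and Hoxc9 events of the 971 regions were mostly strong within their lists, but seldom at the top of all 4. The strongest native Olig2 event had between 12 and 1004 IP reads with a median of 63, which put the median region at percentile 81.9. For V5 Olig2 the IP reads ran from 17 to 902 with a median of 66 (percentile 69.8). V5 Hoxc9 events had 25 to 1597 IP reads with a median of 86.1 (percentile 77.6), and Flag Hoxc9 events 24.5 to 4764 with a median of 168.6 (percentile 87.8). The range within each list was as wide as nearly the whole list, so the 971 regions are not a class of uniformly strong binding.

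Regions of 1 factor gave lower percentiles. The 5427 regions with both Olig2 lists and no Hoxc9 event had a median of 41 native and 52 V5 IP reads (percentiles 65.6 and 56.9), and the 6825 regions with both Hoxc9 lists and no Olig2 event had 56 V5 and 136 Flag IP reads (percentiles 54.6 and 83.0). The gap between the regions with all 4 lists and the regions of 1 factor was widest for V5 Hoxc9 and narrowest for Flag Hoxc9. In the nearest class, 1456 regions with both Olig2 lists and a Flag Hoxc9 but no V5 Hoxc9 event, the median Flag Hoxc9 event had 65.8 IP reads, beside 168.6 at the 971 regions. The 646 regions with both Hoxc9 lists and native but no V5 Olig2 had a median of 26 native Olig2 IP reads, beside 63. Both classes were chosen for lacking the other list of the same factor, and IP reads went together between the lists of 1 factor. The choice of class therefore favours a lower median in the remaining list, and no conclusion is drawn from these gaps. In the lists of the factor with both lists, these classes lay nearer to the 971 regions. The 1456 regions had Olig2 medians of 54 (native) and 59.2 (V5) IP reads, and the 646 had Hoxc9 medians of 74 (V5) and 168.6 (Flag), the last equal to that of the 971.

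**Figure D1:**
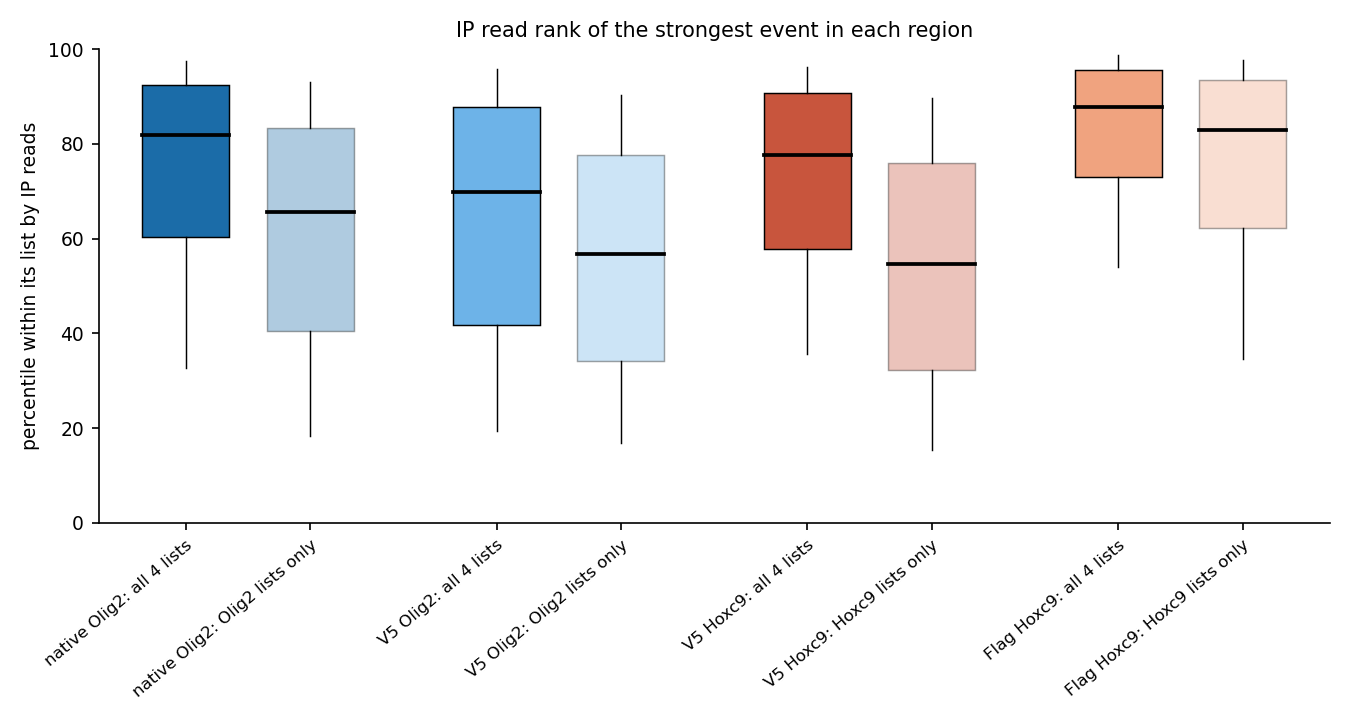
Within-list percentile by IP reads (vertical axis, 100 = most IP reads) of the strongest event in each region, by list, for the 971 regions with all 4 lists (full colour) and for regions with both lists of that factor and no event of the other factor (pale). Boxes span the quartiles, black bars are medians and whiskers reach the 10th and 90th percentile of regions. The median of the 971 regions lies above that of the 1-factor regions in every list, from 87.8 against 83.0 for Flag Hoxc9 to 77.6 against 54.6 for V5 Hoxc9, and the boxes overlap.

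Events in the top 10% of a list were found at 326 of the 971 regions for native Olig2 (33.6%, beside 10.3% of all regions with a native event), at 204 for V5 Olig2 (21.0%, beside 10.1%), at 261 for V5 Hoxc9 (26.9%, beside 10.1%) and at 433 for Flag Hoxc9 (44.6%, beside 9.89%). Of the 43810 regions with a Flag Hoxc9 event, 32586 held no other list, so the Flag share is set beside mostly Flag-only regions. The median Flag Hoxc9 percentile was 83.0 at Hoxc9-only regions and 87.8 at the 646 regions with both Hoxc9 lists and native Olig2. A high Flag Hoxc9 percentile was therefore not particular to the 971. All 4 lists were in their top 10% at 57 regions (5.87%), and none was at 355 (36.6%). At 520 regions (53.6%) all 4 events were in the upper 50% of their lists, and at 86 (8.86%) at least 1 event was in the lowest 10%. Both Olig2 events but neither Hoxc9 event were in the top 10% at 76 regions (7.83%), and both Hoxc9 events but neither Olig2 event at 120 (12.4%). Counts over all 4 lists have no counterpart in regions that lack a list. The share of both-Olig2 regions that also held both Hoxc9 lists was 7.19% in the 10% with fewest native IP reads (57 of 793) and 23.2% in the 10% with most (184 of 794; 20.4 to 26.2). Among both-Hoxc9 regions, the share with both Olig2 lists was 4.45% in the 10% with fewest V5 Hoxc9 IP reads (38 of 853) and 24.9% in the 10% with most (213 of 854; 22.2 to 28.0). By Flag Hoxc9 IP reads the span was narrower, from 5.74% to 16.4%. Split by V5 Olig2 IP reads, the share of both-Olig2 regions was 10.7% in the 10% with fewest and 20.5% in the 10% with most. It fell to 8.07% in between, so that rise was not steady.

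The 10 regions with the best worst percentile over the 4 lists had all their strongest events above percentile 95. They lay on 8 chromosomes (mm9 coordinates throughout). At chr17:15480133-15480422 the strongest Olig2 events had 389.6 (native) and 269.7 (V5) IP reads and the Hoxc9 events 240 (V5) and 465.6 (Flag), and 7 events lay within 289 bp. Both Olig2 lists placed more than 1 event there and both Hoxc9 lists placed 1, at the lower-coordinate end. At chr8:8654068-8654143 the values were 167, 264, 197 and 448.7 in the same order of lists. There the 2 Olig2 events lay 7 bp apart, at 8654068 and 8654075, and the strongest V5 and Flag Hoxc9 events at 8654115 and 8654143. A weaker Flag Hoxc9 event (191.3 IP reads) lay at 8654079, 4 bp from the V5 Olig2 event.

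At chr3:131300781-131300821 the IP reads were 196, 224, 195 and 336. The Flag Hoxc9 event at 131300815 lay 1 bp from the native Olig2 event, while the V5 Hoxc9 event lay 34 bp lower in coordinate. At chr8:37218701-37218839 the IP reads were 321, 204.1, 229 and 358. The native Olig2 and Flag Hoxc9 events were again 1 bp apart. At chr2:150561574-150561984 lay a broader array of 9 events. Its strongest Olig2 events had 704.9 native and 349.5 V5 IP reads and ranked 12 and 109 in their lists. They lay apart, at 150561588 and 150561803, and another V5 Olig2 event (328.1 IP reads) lay at 150561599. The strongest Hoxc9 events had 185.6 V5 and 674.7 Flag IP reads. At chr14:25370340-25370402 all 4 lists had 1 event each, with 194, 217, 183 and 496 IP reads, and the pair of Olig2 events lay below the pair of Hoxc9 events in coordinate, 46 bp apart at the nearest. The other 4 of the 10 were on chromosomes 8, 10, 11 and 19.

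The highest member of each list was chosen after its values were seen. The factors parted widely at the first of the regions below and far less at the others. The strongest Flag Hoxc9 event of the whole list (4764 IP reads) and the V5 Hoxc9 event ranked 2 (1597 IP reads) were in the region chr15:103135747-103135836. Its Olig2 events had 32.3 native and 57 V5 IP reads, at percentiles 51.9 and 62.1. The native Olig2 event ranked 2 in its list (1004 IP reads), with V5 rank 8 (817 IP reads), was in the region chr16:29642490-29642733. Its Hoxc9 events were also strong, with 168.8 V5 and 666.8 Flag IP reads (percentiles 94.8 and 99.3). The most V5 Olig2 IP reads among the 971 (902) were at chr11:55447505-55447666, with 126.3 V5 and 128.5 Flag Hoxc9 IP reads (percentiles 89.5 and 81.4).

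IP reads went together between the lists of 1 factor and only weakly between factors. Across the 971 regions, Spearman's rho of IP reads was 0.78 between native and V5 Olig2 and 0.70 between V5 and Flag Hoxc9. Between factors it was 0.22 for native Olig2 with V5 Hoxc9, 0.16 for native Olig2 with Flag Hoxc9, 0.25 for V5 Olig2 with V5 Hoxc9 and 0.14 for V5 Olig2 with Flag Hoxc9. The pair that shared the anti-V5 antibody had the highest of the 4 values between factors (0.25), close to the 0.22 of native Olig2 with V5 Hoxc9. With the IP reads of all events of a region summed, these values were 0.29 and 0.28. The regions are not independent replicates, and the lists of a factor share day, so these are descriptions over 971 points. At regions of 1 factor only, rho was 0.70 between the Olig2 lists (5427 regions) and 0.60 between the Hoxc9 lists (6825 regions).

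**Figure D2:**
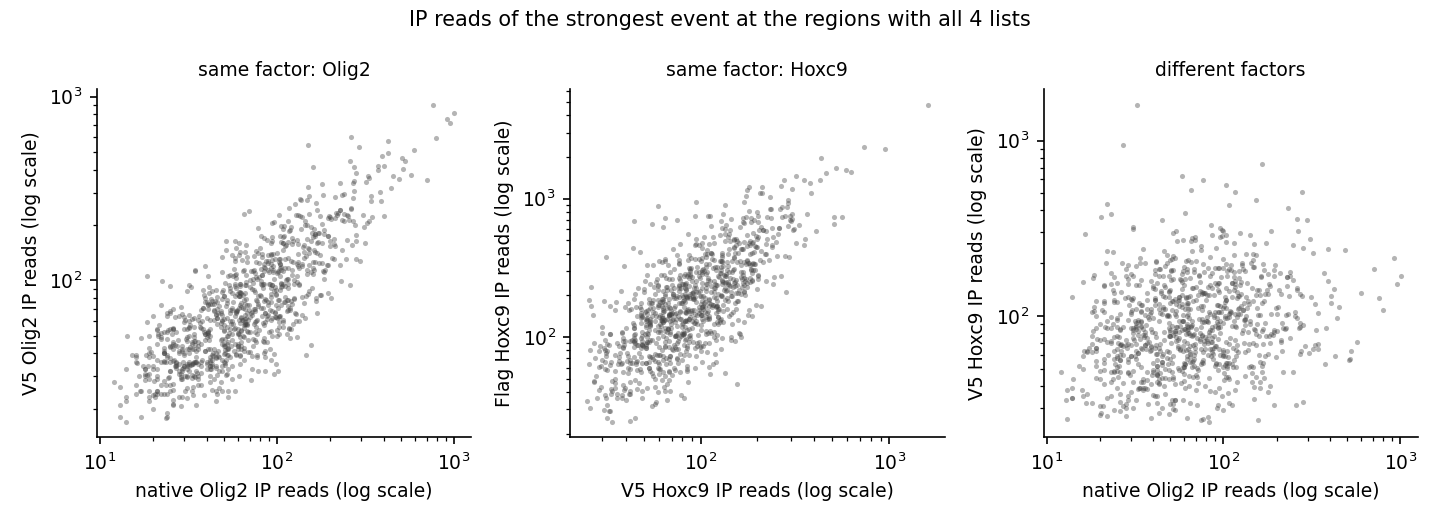
IP reads of the strongest event at each of the 971 regions with all 4 lists, on log axes, for native against V5 Olig2 (left), V5 against Flag Hoxc9 (middle) and native Olig2 against V5 Hoxc9 (right). Each point is 1 region. The same-factor panels form a diagonal band (rho 0.78 and 0.70), and the panel of different factors forms a wide cloud (rho 0.22).

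The extremes of the difference between factors were examined by the mean percentile of a factor's 2 lists. Hoxc9 had the higher mean percentile at 609 regions and Olig2 at 362. The long Flag Hoxc9 list enters the Hoxc9 mean, so these counts do not show which factor bound more strongly. The widest differences towards Olig2 were at chr1:63610721-63610778 (77 native and 101 V5 Olig2, 26 V5 and 30.5 Flag Hoxc9 IP reads), chr1:87616947-87616996 (144 and 210.4, 42 and 24.6) and chr7:137395892-137395920 (83 and 96, 25 and 34.3). In each of these 3 regions, the control reads were listed at 0 in all 4 lists, as they were at 59 of the 971 regions. Towards Hoxc9 the widest were chr7:133150811-133150832 (14 native and 17 V5 Olig2, 129 V5 and 196.6 Flag Hoxc9 IP reads), chr3:116239969-116240066 (16.5 and 30, 294 and 379) and chr4:21613019-21613235 (20.3 and 28.2, 367 and 770). The first of these had control reads of 0 in all 4 lists and the others did not.

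Olig2 and Hoxc9 events lay close together, though less close than events of 1 factor. The nearest Olig2 and Hoxc9 events of a region were a median of 15 bp apart (quartiles 5 and 35), within 10 bp at 398 regions and within 50 bp at 829 (85.4%; 83.0 to 87.5). That distance is the smallest of several pairs, so single pairs were also measured at the 459 regions with exactly 1 event per list. There the native and V5 Olig2 events were a median of 12 bp apart (quartiles 6 and 22), and the V5 and Flag Hoxc9 events 16 bp (7 and 34). Olig2 to Hoxc9 medians were 38 bp (native to V5), 34 bp (native to Flag), 36 bp (V5 to V5) and 32 bp (V5 to Flag). Events of different factors were within 50 bp at 63.4% to 69.3% of these regions, beside 95.6% for the Olig2 pair and 85.8% for the Hoxc9 pair. At 1-factor regions with 1 event per list the medians were 12 bp for Olig2 (4880 regions) and 19 bp for Hoxc9 (5052 regions), so positions within a factor were about as close with as without the other factor. The chaining rule bounds all of these distances.

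**Figure D3:**
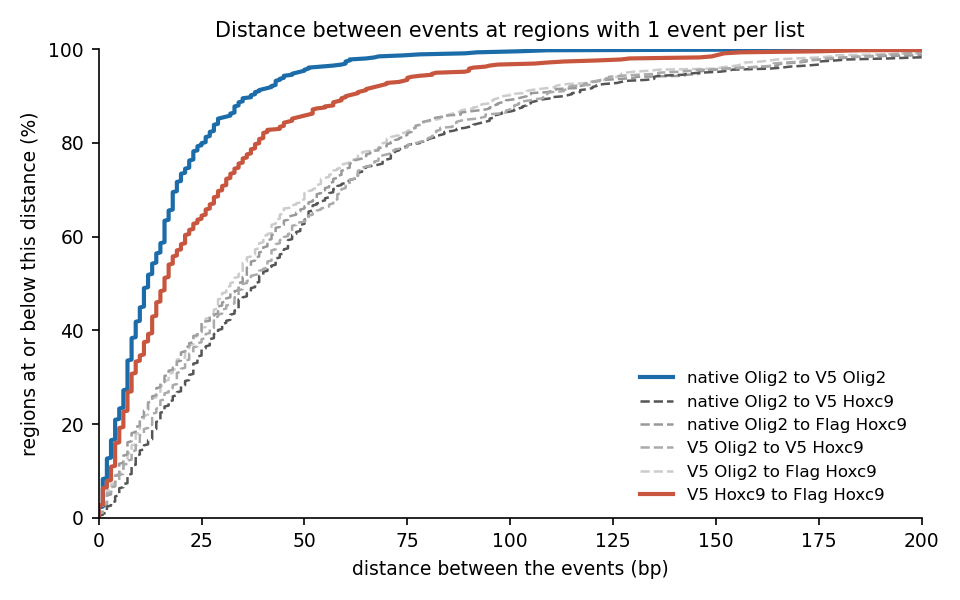
Cumulative share of the 459 regions with 1 event per list (vertical axis, %) whose events lie at or below a distance (horizontal axis, bp, shown to 200), for each of the 6 pairs of lists. Solid lines are pairs of 1 factor (medians 12 and 16 bp) and dashed lines pairs of different factors (medians 32 to 38 bp), which lie to the right of both solid lines.

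The order of the factors along the chromosome was mixed. At the 459 regions with 1 event per list, both Hoxc9 events lay below both Olig2 events in coordinate at 144, above them at 172, and among them or at the same base at 143. The tightest regions spanned 6 bp. At chr3:90180276-90180282 the Olig2 events had 72 (native) and 89.6 (V5) IP reads and the Hoxc9 events 132 (V5) and 153 (Flag), and the folds of IP over control reads were low, at 16.1, 7.4, 3.4 and 5.7 in that order. At chr2:134755384-134755390 the IP reads were 89, 76, 88 and 98. At chr10:12272502-12272508 they were 40.8, 52, 182 and 332.4, so that a strong Hoxc9 and a middling Olig2 event fell within 6 bp. The next were chr10:82543428-82543436 and chr6:123647943-123647952, the last with every event above percentile 90.

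Many regions held more than 1 event per list. The median was 5 events and the most was 13, and 82 regions held 8 or more. More than 1 native Olig2 event was listed at 267 regions (27.5%), more than 1 V5 Olig2 event at 163 (16.8%), V5 Hoxc9 at 100 (10.3%) and Flag Hoxc9 at 370 (38.1%). Exactly 1 event per list was found at 459 of the 971 (47.3%), at 4880 of the 5427 Olig2-only regions and at 5052 of the 6825 Hoxc9-only regions. A region of 4 lists has more lists in which a second event can fall than a region of 2, so no conclusion is drawn from this difference. The span from first to last event had a median of 118 bp and a maximum of 700 bp, and 690 regions spanned 200 bp or less. Both regions with 13 events, chr1:195987053-195987576 and chr3:96236012-96236599, held 4 Flag Hoxc9 events and 3 of each other list. The strongest events of the first had 182.2 native and 292.3 V5 Olig2 IP reads, then 147.8 V5 and 305.3 Flag Hoxc9, and those of the second 260.5, 245.8, 97.3 and 212.9 in that order. The others among the 5 with most events were at chr1:100086589-100087158, chr11:111998570-111999270 (the widest of the 971) and chr12:80980565-80981094, the last being 1 of 4 regions with 11 events and taken for its best worst percentile. In that at chr11, 4 V5 and 5 Flag Hoxc9 events lay beside 1 native and 2 V5 Olig2 events.

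Hoxc9 events had more control reads at the 971 regions than at regions without Olig2, while Olig2 events did not differ so from those of regions without Hoxc9. Control reads are the reads of a control sample at the event, and which library served as control is not given in the sources used here. At the 971 regions the median was 8.8 control reads for V5 Hoxc9 (quartiles 4.3 and 17.7), beside 3.2 at both-Hoxc9 regions without Olig2 (2.2 and 8.8). For Flag Hoxc9 it was 6.2 (2.1 and 10.4), beside 2.1 (0.5 and 5.6), so the middle ranges of the classes overlapped in both lists. For Olig2 it was 1 (native) and 3.4 (V5), beside 1 and 3.1 at both-Olig2 regions without Hoxc9. The listed values clustered on multiples of a step that differed between lists, 0.34 for native Olig2, 1.04 for V5 Olig2, 2.94 for V5 Hoxc9 and 2.08 for Flag Hoxc9. In these steps the medians of the 971 regions were 2.94, 3.27, 2.99 and 2.98 in the same order of lists. The Olig2 regions without Hoxc9 had 2.94 (native) and 2.98 (V5) steps, while the Hoxc9 regions without Olig2 had 1.09 (V5) and 1.01 (Flag). The control reads of a region were correlated between lists (rho 0.75 to 0.86 over the 971 regions), so the 4 values of a region are not separate measurements.

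Control reads were above their list's median at 756 of the 971 regions in the V5 Hoxc9 list (77.9%, beside 48.6% of all regions with such an event) and at 697 in the Flag Hoxc9 list (71.8%, beside 50.7%). For native Olig2 the count was 479 (49.3%, beside 49.4%) and for V5 Olig2 497 (51.2%, beside 44%). They were above the median in all 4 lists at 413 regions and in none at 187. Control reads were listed at 0 at 7.93% of the 971 regions for V5 Hoxc9, beside 19.8% of both-Hoxc9 regions without Olig2, and at 8.75% for native Olig2, beside 7.00% of both-Olig2 regions without Hoxc9. The classes with 3 lists differed among themselves. The median was 6.2 Flag Hoxc9 control reads at both-Olig2 regions with Flag but no V5 Hoxc9, and 6.8 V5 Hoxc9 control reads at both-Hoxc9 regions with native but no V5 Olig2. The 97 both-Hoxc9 regions with V5 but no native Olig2, and the 77 both-Olig2 regions with V5 but no Flag Hoxc9, each had a median of 2.9 V5 Hoxc9 control reads, below the 3.2 of Hoxc9 regions without Olig2.

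**Figure D4:**
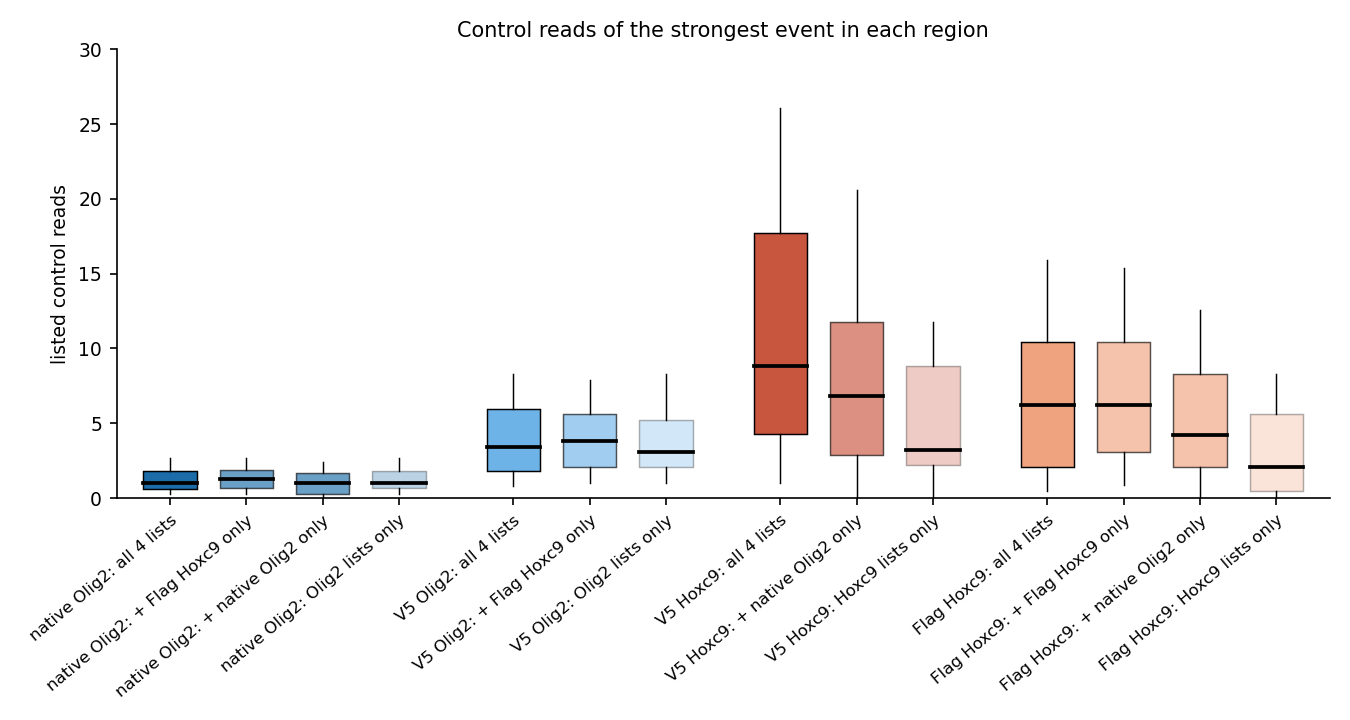
Listed control reads (vertical axis) of the strongest event in each region, by list and class of region. "All 4 lists" are the 971 regions, "+ Flag Hoxc9 only" are regions with both Olig2 lists and Flag but no V5 Hoxc9, "+ native Olig2 only" are regions with both Hoxc9 lists and native but no V5 Olig2, and the palest boxes hold both lists of 1 factor and no event of the other. Boxes span the quartiles, black bars are medians and whiskers reach the 10th and 90th percentile. The V5 Hoxc9 median is 8.8 at the 971 regions and 3.2 at Hoxc9-only regions, while the Olig2 medians of the same classes are nearly level. The scale of control reads differs between lists, so boxes are to be compared within a list.

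The median deposited fold of IP over control reads was lower for Hoxc9 at the 971 regions than at both-Hoxc9 regions without Olig2. The median V5 Hoxc9 fold was 9.6 at the 971 regions and 13.4 at both-Hoxc9 regions without Olig2, although the IP reads were higher at the former, and the Flag Hoxc9 fold was 31.3 beside 57.1. For Olig2 the order was the other way, with 65.3 beside 40.3 (native) and 22 beside 17.4 (V5). A fold of 10 or more was listed at 469 of the 971 regions for V5 Hoxc9 (48.3%, beside 68.3% of all regions with such an event) and at 881 for Flag Hoxc9 (90.7%, beside 79.7%). A fold of 10 or more was listed at 966 for native Olig2 (99.5%, beside 96%) and at 819 for V5 Olig2 (84.3%, beside 80.5%). All 4 folds were 10 or more at 421 regions.

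Events with more IP reads also had more control reads (rho across the 971 regions 0.66 for V5 Hoxc9 and 0.37 for Flag Hoxc9), so control reads were compared within 5 equal bins of IP reads. In the V5 Hoxc9 bin with most IP reads, the median was 16 control reads at 445 regions with all 4 lists and 8.8 at 1386 with Hoxc9 alone. In the next bin it was 9.75 beside 6, and in the other bins the medians differed by at most 0.1. For Flag Hoxc9 the difference was seen in the upper 3 bins, with 8.1 beside 3.9, 4.2 beside 2.1 and 4.1 beside 2.1. In the bins of Olig2 IP reads, the medians of the 971 regions were level with or below those of Olig2-only regions.

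The share of both-Hoxc9 regions that also held both Olig2 lists went up with control reads. It was 5.59% where the V5 Hoxc9 event had under 0.5 steps of control reads (103 of 1843; 4.63 to 6.73) and 55.5% at 9.5 steps or more (66 of 119; 46.5 to 64.1). By Flag Hoxc9 control reads it went from 5.72% (119 of 2081) to 48.7% (38 of 78; 37.9 to 59.6). The share of both-Olig2 regions that held both Hoxc9 lists showed no such climb, with 15.2% at the fewest native Olig2 control reads (91 of 599; 12.5 to 18.3) and 11.7% at the most (51 of 437; 9.0 to 15.0). None of these shares was matched for IP reads. The share of both-Hoxc9 regions also rose with V5 Hoxc9 IP reads, from 4.45% in the 10% with fewest to 24.9% in the 10% with most. What control reads stand for at these regions, and their part in the sharing of events, was not tested. When every event above the median control reads of its list was left out, 203 regions held all 4 lists.

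**Figure D5:**
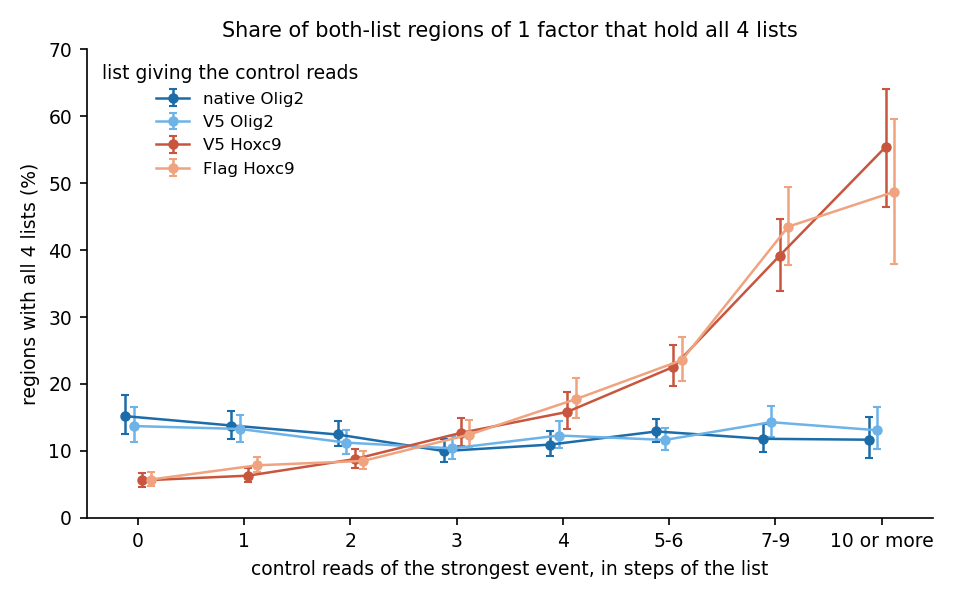
Share of both-Olig2 regions (blue, control reads from the Olig2 lists) and of both-Hoxc9 regions (red and orange, control reads from the Hoxc9 lists) that hold all 4 lists (vertical axis, %), by control reads of the strongest event in steps of its list (horizontal axis, rounded to whole steps and grouped). Bars are Wilson 95% intervals. The Hoxc9 curves climb from 5.59% and 5.72% to 55.5% and 48.7%, and the Olig2 curves stay between 9.97% and 15.2%. The curves are not matched for IP reads, which rise with control reads.

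The 3 regions with most control reads in any list, all in V5 Hoxc9, included some of the strongest. At chr8:127801427-127801478, among the 10 strongest, control reads were 6.2 (native) and 17.4 (V5) for Olig2 and 53 (V5) and 37.4 (Flag) for Hoxc9. The V5 Hoxc9 fold there was 9.6 with 507 IP reads. At chr10:38273646-38273735, also among the 10 strongest, V5 Hoxc9 had 255.9 IP and 49.1 control reads (fold 5.2), and V5 Olig2 had 546 IP and 16.6 control reads (fold 32.9). At chr5:101554108-101554413, V5 Hoxc9 had 268 IP and 50.1 control reads (fold 5.3).

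The 971 regions were spread over all 20 chromosomes used. As a share of both-Olig2 regions, they made up between 7.88% on chromosome 17 (23 regions; 5.31 to 11.5) and 15.9% on chromosome 13 (61 regions; 12.6 to 19.9) among the autosomes, and 4.96% on X (6 of 121 regions; 2.29 to 10.4). With 20 chromosomes looked at, the intervals on X and 17 lie below the 12.2% of all chromosomes and that on 13 lies above it. Another region of any class lay within 10 kb of 72.1% of the 971 regions (69.2 to 74.8), beside 56.4% of Olig2-only and 67.6% of Hoxc9-only regions. In the 4 classes with 3 lists this share was between 69.1% and 76.6%, so it was not particular to the 971. Among themselves they were sparse, with a median of 460619 bp to the next one. Of the 971, 191 had another within 100 kb.

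The densest group was on chromosome 6, where 4 of the 971 regions lay within 25.8 kb, between 52115172 and 52140957. In order along the chromosome, the native Olig2 IP reads of these 4 regions were 34.3, 38.8, 65.7 and 103.6. Their V5 Olig2 IP reads were 46.8, 52.3, 65 and 63.9. Their V5 Hoxc9 IP reads were 161, 158, 202 and 560, and their Flag Hoxc9 IP reads 357, 132, 281 and 735. All 4 had a V5 Hoxc9 event above percentile 93, and the fourth ranked 12 in its list, while V5 Olig2 stayed between percentiles 48.9 and 69.1. Native Olig2 percentiles were 55.7, 62.0, 83.0 and 92.0, so the fourth was also in the top 10% of the native list. At the second of them, chr6:52125544-52125609, the folds were low in every list (10.9, 5.2, 3.8 and 4.2), with 41.3 V5 Hoxc9 control reads.

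Groups of 3 were found 9 times. In the shortest, on chromosome 3 between 144280093 and 144306783, the region at 144306377-144306783 held 10 events, with 134.3 (native) and 223.1 (V5) IP reads for Olig2 and 128 (V5) and 353.5 (Flag) for Hoxc9. Its neighbour at 144280093-144280130 had 111, 153, 128 and 82.5 IP reads, so the same V5 Hoxc9 value stood beside a much lower Flag Hoxc9 one. The region between them had 103, 64, 54 and 95. In the group on chromosome 2 between 109799782 and 109829563, the 3 regions had 39, 45 and 101.3 native Olig2 and 41, 25 and 71 V5 Olig2 IP reads. Their V5 Hoxc9 events had 26.1, 55 and 47 IP reads and their Flag Hoxc9 events 168.4, 176 and 77, so the third was the strongest for Olig2 and the weakest for Flag Hoxc9. The first and the second lay 502 bp apart.

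Few regions depended on a gap near the 200 bp limit. For each region, the gap that must be bridged to keep all 4 lists together was computed. It was 25 bp or less at 278 regions, 50 bp or less at 612 and over 150 bp at 45. The 3 just inside the limit were chr5:148781552-148781901 (a gap of 200 bp, with 58 native and 44.7 V5 Olig2 IP reads, then 117 V5 and 99.8 Flag Hoxc9), chr3:37679555-37679826 (196 bp, with 41.2, 85.4, 66 and 218.3) and chr12:54637948-54638173 (195 bp, with 64, 50, 39.7 and 93.3). Just outside were chr1:158544304-158544512 (202 bp, with 41, 35, 142 and 66.1), chr18:55290855-55291237 (204 bp, with 50.1, 49, 42.8 and 78.8) and chr13:98544942-98545182 (207 bp, with 44.5, 60, 40.2 and 216.4). In each of these last 3, the pair of Olig2 events and the pair of Hoxc9 events fell on different sides of the gap.

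The number of regions with all 4 lists depended on which events were let in. It was 453 with only events of fold 10 or more, 623 with lists of equal length and 118 with only events of a −log10 q of 10 or more, while it stayed between 852 and 1177 with gaps of 100 to 1000 bp.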

How the data were processed

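Reads had been aligned with Bowtie 0.12.5 to mm9, per the submitters' processing notes. For the event caller, neither version nor settings nor the control library is given in the sources used here. The deposited tables list, per the file headers, estimated counts of reads that the authors' event caller assigned to each event in the IP and the control, the fold of IP over control (mostly 9999.9, and otherwise a large number, where control reads are listed as 0), and −log10 of p and q. Positions are those listed on mm9, and whether they count from 0 or 1 is not stated, so each may be 1 bp too low. The 22 events on unplaced contigs were left out. Events of 1 list were ranked by IP reads, and a region took its strongest event in each list. One control step is the mean spacing of the 6 commonest control values, leaving out values above 0 but under 0.3. Chaining was run on simulated lists with groups of events planted close together among randomly scattered ones. Real events are more clustered, so that run checked the code and not the rule. Regions, named sites and lists were chosen with earlier results of these data known. Named regions followed a rule: the 10 with the best worst percentile, the 5 tightest, the 5 with most events, 3 at each extreme between factors, the 3 with most control reads, the 3 densest groups and 3 on each side of the gap limit. Motif and neighbour-gene counts had been planned for the case of an mm9 genome and were not made, so regions are named by position. The work used pandas 2.3.3 and numpy 2.4.6 in Python 3.11.15, with figures drawn in matplotlib 3.10.9.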

Additional observations from a re-analysis of the deposited data

How the results depend on the processing

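The comparison of control reads and its alternatives were chosen after seeing the data. Shares are given in the order of both-Olig2, then both-Hoxc9 regions that held all 4 lists (12.2% and 11.4% as reported). They were 10.5% and 9.93% with a gap of 100 bp, 14.1% and 13.1% with 500 bp, and 15.4% and 14.3% with 1000 bp. A fold of 10 or more left 453 regions, 7.05% and 8.10%. At least 50 IP reads left 467 regions, 15.5% and 9.04%. A −log10 q of 10 or more left 118 regions, 6.96% and 5.95%, with a median of 19 bp between the nearest Olig2 and Hoxc9 events. Lists of equal length gave 623 regions, 9.21% and 12.2%, and the 5000 strongest events of each list 270 regions, 8.26% and 10.5%, with 20.5 bp. Control reads at or below the list median left 203 regions, 5.24% and 5.47%. The settings on fold, IP reads, q, list length, strongest events and control reads use fewer events by construction, and those on the gap use all events. The excess of median control reads over Hoxc9-only regions was 5.6 for V5 Hoxc9, 5.1 with a gap of 100 bp and 7.2 in the 20% of regions with most IP reads. For Flag Hoxc9 it was 4.1, 4.2 in that 20% and 2.1 when the lowest event of a region was taken; the cause was not tested. Both differences stayed above 0 in the alternatives run for them, of which only that 20% was matched for IP reads. In the bins of IP reads described above, the excess was seen only in the bins with more IP reads. The medians were nearly level in the bins with fewer. A value counted as moved when it left the 95% interval of the reported one. The count of regions moved when it changed by more than a fixed factor, and a named region when it lost a list. Among the main results (count of regions, shares, median distance and control reads), 30 alternatives moved and 24 did not. Among the single regions and secondary values, 136 moved and 240 did not. Of the 40 named regions, 34 held all 4 lists with a gap of 100 bp, 22 with a fold of 10 or more and 10 with few control reads. Only 2 of the 40 held all 4 lists in each of the 9 settings in which they were followed. No paired analysis was possible because there was 1 list per condition. Depth is unknown, so no limit on undetected events could be given.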

Other observations

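Unplaced contigs held 22 events in 18 regions, and none of these had events of both factors. Among the 2427 both-Olig2 regions with a Flag Hoxc9 event, 40.0% also had a V5 Hoxc9 event (38.1 to 42.0), while of the 1048 with a V5 Hoxc9 event, 92.7% also had a Flag Hoxc9 event (90.9 to 94.1). Among both-Hoxc9 regions, 60.0% of the 1617 with a native Olig2 event also had a V5 Olig2 event, and 90.9% of the 1068 with a V5 Olig2 event also had a native one. The 971 regions took up 10.5% of V5 Olig2 events, 9.77% of V5 Hoxc9 events, 8.20% of native Olig2 events and 2.92% of events in the longer Flag Hoxc9 list.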
